A study of Mus musculus with 5 samples.

Results

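The 7 genes described here belong to antigen presentation by MHC class I: the heavy chains H2-K1 and H2-D1, their light chain B2m, the peptide transporter subunits Tap1 and Tap2, the peptide-loading chaperone Tapbp (tapasin) and the class I transactivator Nlrc5. They were found by matching gene symbols to the Ensembl gene IDs of the count tables, and all 7 were among the 49315 genes listed. RNA had been sequenced from whole mouse hearts after poly-A selection, in 5 libraries. The HFHS group held 3 libraries, from mice fed a high-fat, high-sucrose diet for 18 weeks, and the chow group held 2, from mice fed standard chow over the same time. Every mouse had received intravenous iron dextran once, and its heart was collected 48 hours later, after a PBS flush, and snap-frozen, so the comparison is one of diets in iron-loaded hearts and holds no library without iron. The sources used here do not give strain, sex or age, so the H2 haplotype of these mice is unknown. Nothing in them says that each library came from a separate mouse, and the p-values measure the spread between these libraries.

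MHC class I molecules show peptides from inside a cell to CD8 T cells. Proteasomes make the peptides, the TAP1-TAP2 pump moves them into the endoplasmic reticulum, tapasin holds an empty class I molecule next to the pump, and a heavy chain leaves for the cell surface once it has bound both a peptide and beta-2-microglobulin. Interferon gamma raises most of these genes, through IRF1 and through NLRC5, which acts at a shared promoter module with the factors that bind its X and Y boxes. In the heart, endothelial cells and macrophages are known for high class I expression and cardiomyocytes for low expression.

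The promoters of the 3 genes with the highest levels among the 7, H2-K1, H2-D1 and B2m, are shown because they carry that module. They are RefSeq sequences of the mouse build GRCm38.p6, 250 bases long and ending 1 base before the transcript start, read 5′ to 3′ on the strand of the gene. H2-K1 lies at chr17:34000334-34000583 on the minus strand (of 2 listed starts, the one nearest the 5′ end of the gene in the count tables), H2-D1 at chr17:35262844-35263093 on the plus strand and B2m at chr2:122147437-122147686 on the plus strand. Capitals mark matches to 4 motifs, searched on both strands: the NF-kB motif, the interferon response motif (GAANNGAAA, also with 1 more A before the NN), the X2 box (TGACG) and the Y box (CCAAT, which reads ATTGG on the other strand).
H2-K1: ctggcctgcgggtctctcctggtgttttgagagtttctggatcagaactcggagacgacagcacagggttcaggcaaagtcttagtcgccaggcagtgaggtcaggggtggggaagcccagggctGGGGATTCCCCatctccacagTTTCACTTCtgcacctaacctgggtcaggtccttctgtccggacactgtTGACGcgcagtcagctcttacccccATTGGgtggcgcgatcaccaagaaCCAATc
H2-D1: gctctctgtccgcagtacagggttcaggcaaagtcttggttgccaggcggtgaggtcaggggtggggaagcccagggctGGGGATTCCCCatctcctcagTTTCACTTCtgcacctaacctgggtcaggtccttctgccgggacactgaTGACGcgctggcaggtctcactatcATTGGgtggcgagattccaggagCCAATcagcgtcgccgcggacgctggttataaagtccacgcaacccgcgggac
B2m: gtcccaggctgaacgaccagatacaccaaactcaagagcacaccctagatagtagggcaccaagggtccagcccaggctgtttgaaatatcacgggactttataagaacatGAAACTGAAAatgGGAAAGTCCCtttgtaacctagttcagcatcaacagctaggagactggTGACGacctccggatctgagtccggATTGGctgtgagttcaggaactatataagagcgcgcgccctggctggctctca
In H2-K1 the matches ran NF-kB at −125 to −115, interferon response at −104 to −96, X2 at −55 to −51 and Y at −30 to −26, counted back from the base before the start as −1, with another Y at −6 to −2. H2-D1 had the same 4 in the same order at −171 to −161, −150 to −142, −101 to −97 and −76 to −72, with another Y at −53 to −49. In B2m the interferon response motif (−139 to −130) stood before the NF-kB motif (−126 to −117), followed by X2 at −78 to −74 and Y at −53 to −49. No match of a motif overlapped a match of another one in these windows. Over aligned positions, the H2-K1 and H2-D1 promoters were 87.2% identical (177 of 203 bases), and every other pair among the 5 promoters held by the table was 48.8% to 58.2% identical.

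Among 32851 promoter windows of the same 250 bases before the start, 3.9% held the NF-kB motif, 8.82% the interferon response motif, 17.8% the X2 box and 33.8% the Y box. All 4 motifs occurred together in 15 windows (0.0457%), which belong to 14 genes. Tap1 had 1 X2 and 1 Y match and neither of the other motifs, and Tapbp had Y matches only, which says nothing about sites outside these windows or spelled otherwise. The table has no entry for Tap2 or Nlrc5. These letters were chosen with class I promoters in view, and a match is a description of the sequence, not a bound site.

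**Figure D1:**
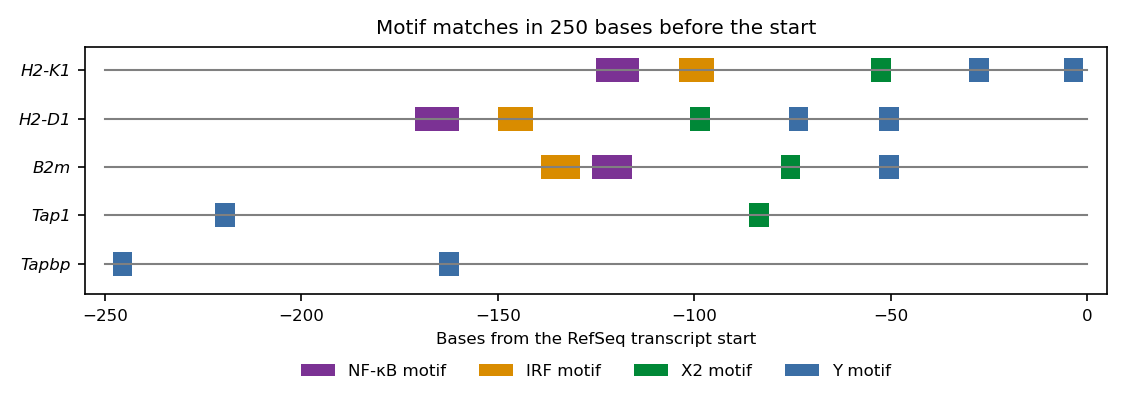
Positions of the motif matches in the promoters of H2-K1, H2-D1, B2m, Tap1 and Tapbp. The horizontal axis gives bases from the RefSeq transcript start, each line is 1 gene and each box is 1 match (overlapping matches of the same motif are merged). H2-K1, H2-D1 and B2m each hold all 4 motifs, with X2 followed by Y, whereas Tap1 holds X2 and Y far apart and Tapbp holds only Y.

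Total counts were 14362766 to 16546113 in the HFHS libraries and 17331356 to 17774735 in the chow libraries, and 3 counts, the level that a count of 0 allows, came to 0.169 to 0.209 counts-per-million (CPM), which covers counting error only. CPM values here use library sizes adjusted by TMM. Mitochondrially encoded genes took 32.9% to 33.8% of counts in HFHS libraries and 30.3% to 31.8% in chow libraries. The defining genes of heart muscle were high throughout: 8 cardiomyocyte markers summed to 57407 to 61530 CPM in HFHS libraries and 52215 to 57855 CPM in chow libraries. The 2 diets were compared by edgeR's quasi-likelihood test over 14221 genes, and a gene was called when its p, after Benjamini-Hochberg adjustment over all of them, was under 0.05. This called 5417 genes (38.1%), with 2661 (18.7%) lower in HFHS hearts and 2756 (19.4%) higher. Log2 fold changes are HFHS over chow, so a negative value means lower in HFHS hearts.

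Messenger RNA of the class I molecule itself was about 2-fold lower in HFHS hearts: H2-K1, H2-D1 and B2m all fell. Of all 7 genes, 4 fell, with tapasin as the fourth by a smaller amount, and none rose. Tap1 and Tap2 were lower without passing the threshold, and Nlrc5 was level in this fit, which does not correct for exon length. With trends on exon length and GC content removed, Nlrc5 stood at −0.26 and did not pass. The fit without that correction called 4 of 7 genes in either direction, where 38.1% of all genes tested were called. It called 4 of 7 lower, where 18.7% of all genes were. The median log2 fold change was −0.36 over the 7 genes and −0.01 over all genes. In 6 of the 7 genes, all but Nlrc5, every HFHS library lay below both chow libraries, as did 29.4% of all genes tested. All 7 genes passed the filter on low counts. In bulk tissue, fewer cells of a type and less RNA per cell cannot be told apart.

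H2-K1 and H2-D1 encode the polymorphic heavy chains that hold the peptide. H2-K1 (ENSMUSG00000061232, chr17:33996017-34000333, minus strand) had 108, 108 and 92.6 CPM in HFHS replicates 1, 2 and 3, against 222 and 182 CPM in chow replicates 1 and 2. H2-D1 (ENSMUSG00000073411, chr17:35262730-35267499, plus strand) had 129, 129 and 127 CPM in the HFHS libraries, against 254 and 231 CPM in the chow libraries. For both genes the groups were far apart, and the HFHS libraries differed less among themselves than the 2 chow libraries did. H2-K1 averaged 103 ± 8.82 CPM in HFHS hearts (SD, n = 3) and 202 ± 28.3 CPM in chow hearts (SD, n = 2), a log2 fold change of −0.98 (SE 0.0941), or 1.97-fold lower, with an edgeR adjusted p of 3.08e-06. H2-D1 averaged 128 ± 1.34 CPM in HFHS hearts, against 243 ± 15.7 CPM in chow hearts, a log2 fold change of −0.92 (SE 0.0710), or 1.89-fold lower (adjusted p = 3.99e-07).

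B2m (ENSMUSG00000060802, chr2:122147686-122153083, plus strand) encodes beta-2-microglobulin, the invariant light chain without which most class I heavy chains do not reach the surface. It had 161, 162 and 137 CPM in HFHS libraries, against 357 and 310.0 CPM in chow libraries, with no overlap. Its fall was the largest of the 7 genes in this fit: 153 ± 13.96 CPM in HFHS hearts, against 334 ± 33.4 CPM in chow hearts, a log2 fold change of −1.12 (SE 0.0874), or 2.18-fold lower (adjusted p = 4.36e-07). Among all genes tested, 2.99% were called lower by at least 2-fold. HFHS replicate 3 had the lowest value of the 5 libraries for H2-K1, H2-D1 and B2m alike, and chow replicate 1 the highest.

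**Figure D2:**
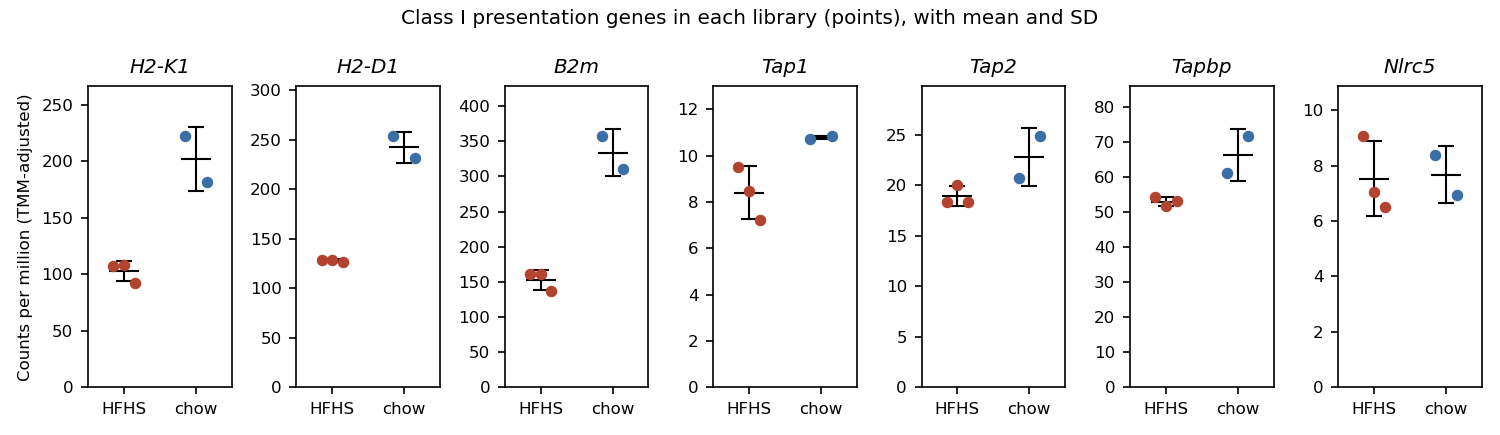
TMM-adjusted CPM of the 7 genes, 1 panel per gene with its own axis from 0. Points are libraries (HFHS left, chow right), and bars give the group mean and SD. HFHS points lie below all chow points in every panel except that of Nlrc5, with the widest separation for H2-K1, H2-D1 and B2m.

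The genes that load the peptide changed less. Tapbp (ENSMUSG00000024308, chr17:33915899-33929288, plus strand) had 54.3, 51.7 and 53.1 CPM in HFHS libraries, against 61.2 and 71.7 CPM in chow libraries. It fell 1.25-fold, to 53.0 ± 1.33 CPM in HFHS hearts, against 66.4 ± 7.45 CPM in chow hearts (log2 fold change −0.32, SE 0.0858, edgeR adjusted p = 0.00841). The higher chow value came from replicate 2, and without that library the log2 fold change was −0.21 (adjusted p = 0.110).

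Tap1 and Tap2 encode the 2 subunits of the peptide pump. Tap1 (ENSMUSG00000037321, chr17:34187553-34197225, plus strand) had 9.49, 8.47 and 7.23 CPM in HFHS libraries, against 10.7 and 10.8 CPM in chow libraries. Tap2 (ENSMUSG00000024339, chr17:34203527-34216321, plus strand) had 18.4, 20.0 and 18.3 CPM in HFHS libraries, against 20.7 and 24.8 CPM in chow libraries. In both genes the groups were ordered without overlap but lay close together, with HFHS replicate 1 nearest to the chow libraries for Tap1 and HFHS replicate 2 for Tap2. The log2 fold change of Tap1 was −0.36 (SE 0.147, adjusted p = 0.0703), with a 95% interval of −0.65 to −0.07. That of Tap2 was −0.27 (SE 0.110, adjusted p = 0.0676), with an interval of −0.49 to −0.05. Both intervals lie below 0, and neither gene passed after adjustment over all genes tested. Both depended on single libraries. Tap1 passed without HFHS replicate 1 (−0.46, adjusted p = 0.0490) and was −0.26 without HFHS replicate 3. Tap2 passed without chow replicate 1 (−0.39, adjusted p = 0.0265) and was −0.14 without chow replicate 2 (adjusted p = 0.471).

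Nlrc5 (ENSMUSG00000074151, chr8:94434356-94527272, plus strand), which encodes the factor that drives class I promoters, had 9.06, 7.03 and 6.49 CPM in HFHS libraries, against 8.39 and 6.94 CPM in chow libraries. The groups overlapped, the highest and the lowest values both being HFHS libraries. It averaged 7.53 ± 1.35 CPM in HFHS hearts, against 7.67 ± 1.02 CPM in chow hearts, a log2 fold change of −0.02 (SE 0.177, adjusted p = 0.934). The 95% interval in this fit ran from −0.37 to 0.32. It leaves out a change as large as those of H2-K1, H2-D1 and B2m but not one as large as that of Tapbp. The interval comes from the fit without a correction for exon length. In that fit, genes about as long as Nlrc5 had a median log2 fold change of 0.21. No interval is given for a corrected fit. With trends on exon length and GC content removed, Nlrc5 stood at −0.26. Its counts were low, 96 to 145 in HFHS libraries and 125 to 155 in chow libraries, and the sign changed when single libraries were left out (−0.18 to 0.12).

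Levels can be compared between genes once divided by exon length, as TPM (a length-normalised share of the library). B2m stood at 339 ± 29.6 TPM in HFHS hearts and 747 ± 54.6 TPM in chow hearts. H2-D1 came next, with 94.6 ± 0.596 TPM in HFHS hearts and 181 ± 6.82 TPM in chow hearts, followed by H2-K1, with 75.1 ± 6.14 TPM in HFHS hearts and 149 ± 16.9 TPM in chow hearts. Light chain mRNA was thus more abundant than the classical heavy chain mRNAs added together. Tapbp was at 30.7 ± 0.680 TPM in HFHS hearts and 38.9 ± 5.42 TPM in chow hearts, and Tap2 at 9.53 ± 0.501 TPM in HFHS hearts and 11.6 ± 1.79 TPM in chow hearts. Tap1 had 2.92 ± 0.378 TPM in HFHS hearts and 3.80 ± 0.132 TPM in chow hearts, and Nlrc5 had the lowest level, 1.69 ± 0.293 TPM in HFHS hearts and 1.74 ± 0.185 TPM in chow hearts. The order was the same in both groups, and the libraries of neighbours in it did not overlap within a group. The length used is the sum of all annotated exons, which understates the level of a gene with long, rarely used exons.

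Within a library, Tapbp, Tap1 and Nlrc5 stood higher against the heavy chains in HFHS hearts. Tapbp TPM per TPM of H2-K1 plus H2-D1 was 0.181, 0.172 and 0.191 in HFHS libraries, against 0.101 and 0.136 in chow libraries. The same ratio of Tap1 was 0.0190, 0.0169 and 0.0156 in HFHS libraries, against 0.0107 and 0.0124 in chow libraries. The ratio of Nlrc5 was 0.0117, 0.00907 and 0.00903 in HFHS libraries, against 0.00538 and 0.00512 in chow libraries. For each of these 3 ratios every HFHS library exceeded both chow libraries. B2m per heavy chain went the other way, at 2.05, 2.06 and 1.88 in HFHS libraries, against 2.26 in each chow library. That direction did not hold once trends on exon length and GC content were removed, when B2m fell less than either heavy chain. With those trends removed, Tapbp, Tap1 and Nlrc5 still had smaller drops than either heavy chain, by a smaller margin than in the edgeR fit with TMM. These 3 genes have more exon bases (3296, 5476 and 8493) than H2-K1 (2608) and H2-D1 (2579), and longer genes tended to higher fold changes in these data. Each of the 4 ratios to the heavy chains had a two-sided exact permutation p of 0.2, the smallest that 3 libraries against 2 allow, so none can pass 0.05. H2-K1 per H2-D1 overlapped between the groups (0.826, 0.831 and 0.724 in HFHS libraries, against 0.866 and 0.778 in chow libraries, exact permutation p = 0.8), so the heavy chains did not separate from each other.

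Fold changes in this data set ran with exon length. Over 10 length bins, the median log2 fold change of all tested genes went from −0.47 in the shortest (57 to 1436 bases) to 0.32 in the longest (9237 bases and over). The 7 genes span much of that range, from B2m with 860 bases of exon to Nlrc5 with 8493. In the bin of B2m, 43.7% of genes were called lower; in the bin of H2-K1 (2608 bases) and H2-D1 (2579 bases) it was 25.6%, with a median of −0.17. In the bins of Tapbp, Tap2, Tap1 and Nlrc5, with 3296, 3781, 5476 and 8493 bases, the shares called lower were 22.3%, 15.8%, 9.77% and 6.4%. Length therefore ordered the genes partly as their fold changes did.

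With smooth trends on exon length and GC content removed from each library, H2-K1 stood at a log2 fold change of −0.83, H2-D1 at −0.77 and B2m at −0.66. All 3 were still called, and B2m, which lost most, no longer had the largest fall. Under the same offsets Tapbp (−0.27) stayed called, Tap1 (−0.46, adjusted p = 0.0294) became so, and Tap2 (−0.26) and Nlrc5 (−0.26, adjusted p = 0.285) were not. That fit called 15% of all genes lower.

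**Figure D3:**
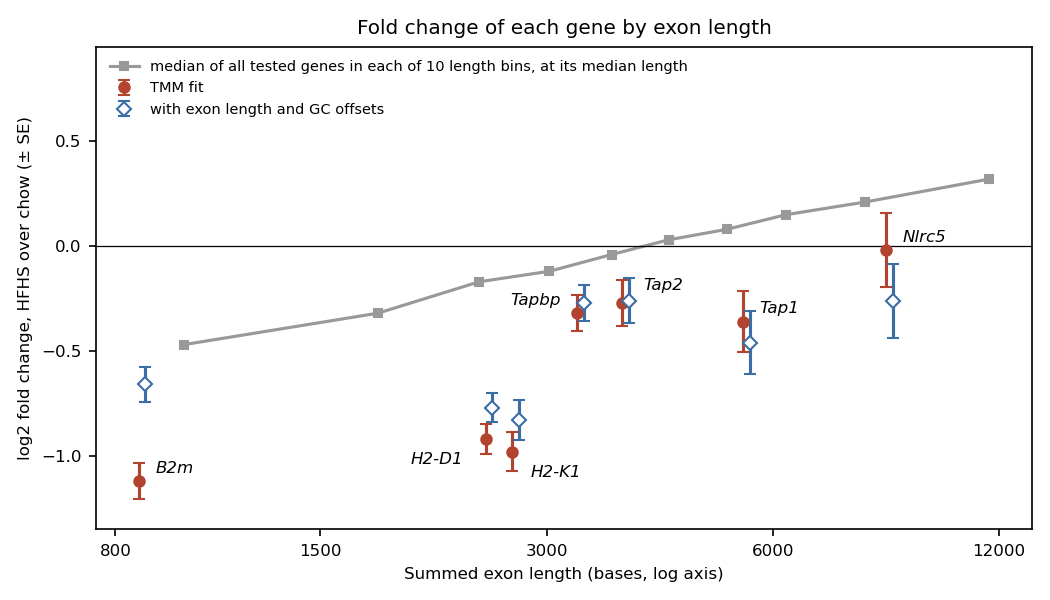
Log2 fold change (HFHS over chow, with SE) of the 7 genes against summed exon length on a log axis. Filled circles are the TMM fit and open diamonds the fit with exon length and GC offsets, and the grey line joins the medians of all tested genes in 10 length bins. All 7 circles lie below the grey line, and the offsets move B2m up from −1.12 to −0.66.

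Class I heavy chain genes are near-identical copies over parts of their length, and the sources used here do not say how the authors counted reads that fit several genes. Heavy chain genes also differ between mouse haplotypes, and if these mice do not carry the haplotype of the reference build, the counts and TPM of H2-K1 and H2-D1 reflect only the reads that still matched it. Of the 50-base stretches in annotated transcripts, 9.63% for H2-K1 and 12.8% for H2-D1 also occurred in transcripts of another gene, and for 100-base stretches it was 0.96% and 3.59%. H2-T22, a non-classical heavy chain, shared 53.5% of its 50-base stretches, and H2-Q4, H2-Q6 and H2-Q7 of the Qa family shared 36.4%, 35.0% and 26.5%. B2m shared none at either length. Tapbp shared 23.2% and Tap2 11.6% at 50 bases, partly through neighbours: exons of Tapbp overlap those of Gm19412 on the opposite strand over 665 bases and of Zbtb22 on the same strand over 61, and exons of Tap2 overlap Gm15821 over 533. Gm19412 and Gm15821 had at most 5 and 12 counts in any library. Exons of Tap1 and Psmb9, which lie head to head, share 212 bases on opposite strands.

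The family was therefore also summed, which does not depend on how counted reads were split inside it. Reads left uncounted because they fit several genes, or because the haplotype differs, would be missing from the sum too. The 27 heavy chain genes in the tables, 20 of them detected, summed to 366, 370 and 331 CPM in HFHS libraries, against 704 and 603 CPM in chow libraries. The sum averaged 356 ± 21.7 CPM in HFHS hearts, against 653 ± 71.5 CPM in chow hearts and was 1.84-fold lower (log2 fold change −0.88, SE 0.0805, edgeR adjusted p = 1.96e-06). H2-K1 and H2-D1 made up 63.9% to 68.6% of these counts in the 5 libraries, so the sum mostly repeats those genes.

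Of the 25 other heavy chain genes in the tables, 11 passed the filter on low counts. Of these 11, 7 fell and none rose, where 18.7% of all genes tested were called lower. The median log2 fold change of the 11 was −0.70. H2-T22 had 16.8 ± 1.75 CPM in HFHS hearts, against 31.8 ± 5.74 CPM in chow hearts (log2 fold change −0.92, SE 0.125, adjusted p = 5.72e-05). H2-Q6 had 22.4 ± 4.74 CPM in HFHS hearts, against 44.0 ± 6.41 CPM in chow hearts (−0.97, adjusted p = 1.20e-04), and H2-Q4 had 31.1 ± 3.54 CPM in HFHS hearts, against 50.7 ± 9.23 CPM in chow hearts (−0.71, adjusted p = 3.30e-04). H2-T23, which encodes Qa-1, the ligand of the NKG2A receptor of natural killer cells, had 17.8 ± 0.894 CPM in HFHS hearts, against 28.9 ± 1.45 CPM in chow hearts (−0.70, adjusted p = 8.64e-05). Given their shared sequence, the single values of H2-T22, H2-Q4 and H2-Q6 are uncertain. The other 3 that fell, named after their values were seen, were H2-Q7 (−0.83), H2-M3 (−0.99) and H2-K2 (−0.61), and H2-K2 lost its call with DESeq2, with the length and GC offsets and without HFHS replicate 1 or 2 or either chow replicate. H2-M3 moved to −0.65 with the length and GC offsets (adjusted p = 0.0285). H2-Q5, H2-Q10, H2-T10 and H2-T24 did not pass.

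Of the 14 genes whose promoter window held all 4 motifs, 8 were B2m or class I heavy chains. Of those 8, 7 were tested and fell: B2m, H2-K1, H2-D1, H2-Q4, H2-Q7, H2-T22 and H2-M3. Among all genes tested, 18.7% were called lower. Heavy chains that are not among the 14 genes fell too: H2-Q6 (−0.97), H2-T23 (−0.70) and H2-K2 (−0.61). H2-Q5, H2-Q10, H2-T10 and H2-T24, also not among them, did not pass. Of the 6 other genes, 4 were tested: Pxmp4 rose (0.35) and Ebp, Oasl1 and Rab28 did not pass. The window of Gm6034, which was not tested, overlaps that of H2-T22 on the opposite strand, so this region counts on both sides. These are descriptions, since the motifs were taken from class I promoters and the heavy chains are copies of each other.

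Of 4 tested genes whose proteins pair with beta-2-microglobulin in a class I-like way, 2 fell and none rose, with a median log2 fold change of −0.21. Among all genes tested, 18.7% were called lower. Fcgrt, the neonatal Fc receptor chain that recycles IgG and albumin, fell to 58.5 ± 0.836 CPM in HFHS hearts, against 72.5 ± 0.194 CPM in chow hearts (log2 fold change −0.31, adjusted p = 0.00464), and with the length and GC offsets it did not pass (−0.09, adjusted p = 0.413). Hfe, the hemochromatosis protein that takes part in iron sensing, had 31.2 ± 0.440 CPM in HFHS hearts, against 46.9 ± 12.3 CPM in chow hearts (−0.59, adjusted p = 0.00215). Its chow libraries differed widely, and the log2 fold change was −0.83 without chow replicate 1 (adjusted p = 8.94e-06) and −0.29 without chow replicate 2 (adjusted p = 0.0463). Mr1, which presents microbial metabolites to MAIT cells, had 12.7 ± 1.75 CPM in HFHS hearts, against 13.0 ± 1.40 CPM in chow hearts and did not pass (adjusted p = 0.873).

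Of the 6 genes of the immunoproteasome and its activator, the interferon-inducible forms that supply class I peptides, 5 fell and none rose. The median log2 fold change of the 6 was −0.64, and 18.7% of all genes tested were called lower. Psmb8, a catalytic subunit that replaces its standard counterpart, had 9.08 ± 1.10 CPM in HFHS hearts, against 17.8 ± 1.73 CPM in chow hearts (−0.97, adjusted p = 6.47e-05). Psme2 and Psme1, the chains of the PA28 activator, fell by 0.72 and 0.56 on the log2 scale (adjusted p = 2.38e-05 and 2.58e-04), and with the length and GC offsets by 0.44 and 0.36. Pomp, the proteasome maturation factor, fell by 0.48 (adjusted p = 1.79e-04). With the same offsets Psmb8 stood at −0.84 and Pomp at −0.57. The fifth, named after its value was seen, was Psmb9 (−1.22), which had 4.05 ± 0.994 CPM in HFHS hearts, against 9.49 ± 3.12 CPM in chow hearts and shares its start region with Tap1. The value of Psmb9 with the offsets is not given. Psmb10 did not pass (adjusted p = 0.135).

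The standard counterparts divided. The catalytic subunits Psmb5, Psmb6 and Psmb7 fell by 0.61, 0.48 and 0.39 on the log2 scale, and the activators Psme4 and Psme3 rose (0.40 and 0.29). Psmb5, Psmb6 and Psme4 lost their calls with the length and GC offsets (adjusted p = 0.0885, 0.0932 and 0.0981). The value of Psme3 with these offsets is not given. Psme4 rested on unlike chow libraries, and its log2 fold change was 0.22 with replicate 1 left out and 0.61 with replicate 2 left out.

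Of 7 further genes of peptide trimming and loading in the endoplasmic reticulum, 3 rose and 2 fell, with a median of 0.18. Among all genes tested, 38.1% were called in either direction. Lnpep, the aminopeptidase IRAP, had 26.5 ± 7.99 CPM in HFHS hearts, against 15.8 ± 0.482 CPM in chow hearts (0.75, adjusted p = 0.00475), and without HFHS replicate 3 its log2 fold change was 0.47. Uggt1, which checks glycoprotein folding, rose by 0.59 (adjusted p = 8.93e-05), and by 0.24 with the length and GC offsets. Erap1, which trims peptides to length and is named after its value was seen, rose by 0.37 in the fit without length offsets. The value of Erap1 with the offsets is not given. Pdia3 (ERp57), the thiol partner of tapasin, fell by 0.52 (adjusted p = 7.96e-04), and by 0.33 without chow replicate 2. Calr (calreticulin) fell by 0.32 (adjusted p = 0.00625), a call lost with the length and GC offsets (adjusted p = 0.0614) and without chow replicate 2 (adjusted p = 0.0815).

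Among 16 other regulators of class I transcription, 5 fell and 1 rose, a share close to the 38.1% called among all genes tested, with a median log2 fold change of −0.13. Irf1, the interferon-induced activator that binds the interferon response motif, had 20.9 ± 0.487 CPM in HFHS hearts, against 31.3 ± 2.26 CPM in chow hearts (−0.58, adjusted p = 2.76e-04). Irf9, the DNA-binding part of the type I interferon complex, fell by 0.53 (adjusted p = 0.00163), and Rfxank, a subunit of the RFX complex that works with NLRC5 at the X box, by 0.63 (adjusted p = 0.00152). Nfkbia, the NF-kB inhibitor and target, fell by 0.58 (adjusted p = 7.59e-04), a call lost with the length and GC offsets (adjusted p = 0.0610). The remaining 2 calls, named after their values were seen, were Nfyb, a Y box factor, which fell by 0.36, and Nfkb1, which rose by 0.24. Values of Nfyb and Nfkb1 with the offsets are not given. Of 7 interferon receptors and their kinases, Ifngr1 fell by 0.52 (adjusted p = 4.79e-04) and Jak1 rose by 0.29 (adjusted p = 0.00583), the second of which lost its call with the offsets (adjusted p = 0.272). Ifnar2 (−0.25, adjusted p = 0.0882) and Tyk2 (0.16, adjusted p = 0.309) did not pass.

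Class II presentation, which belongs to macrophages, dendritic cells and B cells, also fell. Of 8 tested genes, 6 fell and none rose, where 18.7% of all genes tested were called lower. The median log2 fold change of the 8 was −1.09. H2-Aa had 34.2 ± 1.06 CPM in HFHS hearts, against 86.1 ± 21.4 CPM in chow hearts (−1.33, adjusted p = 1.64e-06), and Cd74, the invariant chain, had 59.9 ± 0.144 CPM in HFHS hearts, against 122 ± 13.3 CPM in chow hearts (−1.02, adjusted p = 5.05e-07). H2-Eb1 and H2-Ab1 fell by 1.20 and 1.16. With the length and GC offsets the falls were smaller but still called: −1.06 for H2-Aa, −0.68 for Cd74, −0.82 for H2-Eb1 and −0.87 for H2-Ab1. The 11 genes listed as receptors or effectors on the CD8 T and natural killer side were all under the filter and summed to 1.22 to 2.94 CPM in HFHS libraries and 2.76 to 2.89 CPM in chow libraries.

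**Figure D4:**
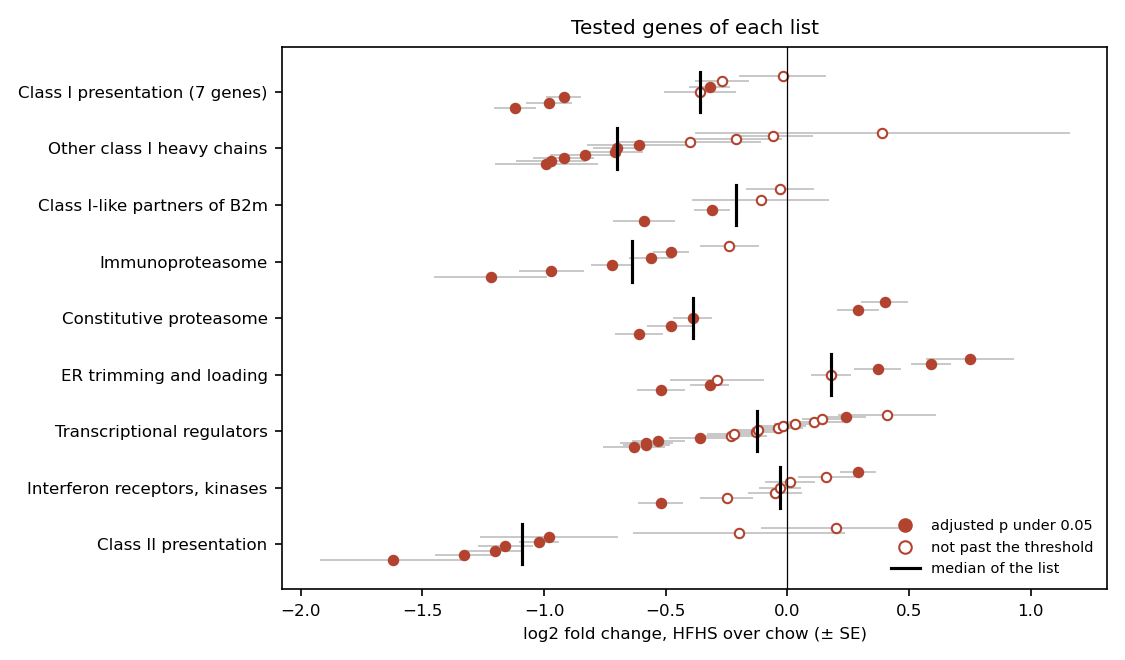
Log2 fold change (HFHS over chow) of every tested gene in each list, 1 point per gene with its SE. Filled points passed an adjusted p of 0.05, open points did not, and the black bar is the median of the list. The medians of the class I heavy chain (−0.70), immunoproteasome (−0.64) and class II (−1.09) lists lie left of 0. So do those of the 7 genes (−0.36), the constitutive proteasome (−0.39) and the class I-like partners (−0.21). The medians of the regulators (−0.13) and the interferon receptors and kinases (−0.03) lie near 0, and that of trimming and loading (0.18) lies right of it.

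Markers of the cells known for class I expression also moved. Among all genes tested, 18.7% were called lower and 19.4% higher. The share called lower differed with exon length, from 43.7% in the shortest of the 10 length bins to 2.74% in the longest. No length offsets entered the marker values below. All 12 macrophage markers fell (median log2 fold change −1.12), and they summed to 218 to 251 CPM in HFHS libraries and 499 to 588 CPM in chow libraries. Of 8 endothelial markers 6 fell (median −0.43), with sums of 1266 to 1302 CPM in HFHS libraries and 1965 to 2162 CPM in chow libraries. Fabp4 gave much of the endothelial difference, with 424 ± 3.24 CPM in HFHS hearts, against 1015 ± 120.3 CPM in chow hearts, whereas Cdh5 and Kdr did not pass. All 8 fibroblast markers fell (median −0.40), with sums of 1616 to 1647 CPM in HFHS libraries and 2189 to 2216 CPM in chow libraries. Of 7 pericyte and smooth muscle markers, 3 fell and 1 rose (median −0.28), with sums of 1266 to 1351 CPM in HFHS libraries and 1370 to 1376 CPM in chow libraries. Of the 8 cardiomyocyte markers, 4 fell and 2 rose (median −0.06).

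Markers of blood cells were low, except those of red cells. The 5 erythroid genes all fell (median −1.99), summing to 259 to 534 CPM in HFHS libraries and 1429 to 1635 CPM in chow libraries. Among all genes tested, 18.7% were called lower. In the bin of the shortest genes 43.7% were, with a median of −0.47. No length offsets entered the values of the blood cell markers. T and natural killer cell markers summed to 2.16 to 2.51 CPM in HFHS libraries and 2.67 to 3.09 CPM in chow libraries, and B cell markers to 1.35 to 2.56 CPM in HFHS libraries and 1.44 to 4.49 CPM in chow libraries. Neutrophil markers summed to 1.69 to 2.64 CPM in HFHS libraries and 3.30 to 4.61 CPM in chow libraries, with Ly6g at 0 in every library. Dendritic cell markers summed to 26.3 to 32.6 CPM in HFHS libraries and 27.3 to 33.9 CPM in chow libraries, and none of the 4 tested passed. The part of these cell types in the fall of the class I genes was not tested.

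Set against marker counts of the same library, the genes separated again. Per 100 macrophage marker counts, B2m had 73.5, 73.0 and 54.5 counts in HFHS libraries, against 71.6 and 52.7 in chow libraries, and H2-K1 and H2-D1 likewise overlapped between the groups, with differences of the mean log2 ratios of 0.11 for B2m, 0.26 for H2-K1 and 0.32 for H2-D1. The same ratio of Tapbp did not overlap, at 24.9, 23.4 and 21.1 in HFHS libraries, against 12.3 and 12.2 in chow libraries. Per 100 endothelial marker counts, B2m had 12.3, 12.7 and 10.8 counts in HFHS libraries, against 16.5 and 15.8 in chow libraries. H2-K1 (7.32 to 8.50 in HFHS libraries, against 9.26 to 10.3 in chow libraries) and H2-D1 (9.91 to 10.11 in HFHS libraries, against 11.7 to 11.8 in chow libraries) did not overlap either. In the same ratio the loading genes and Nlrc5 lay on the other side, higher in HFHS libraries without overlap: the difference of the mean log2 ratios was 0.37 for Tapbp, 0.32 for Tap1, 0.42 for Tap2 and 0.65 for Nlrc5, against −0.28 for H2-K1, −0.23 for H2-D1 and −0.44 for B2m. With Fabp4 left out of the endothelial markers, an alternative added after seeing the data, the separation of B2m widened to 16.2 to 19.1 in HFHS libraries, against 29.9 to 33.6 in chow libraries, while the ratios of Tapbp, Tap1, Tap2 and Nlrc5 overlapped. Whether any of these ratios differs between the diets cannot be settled with 3 libraries against 2, and overlap is given as a description. No length offsets entered these ratios. Their order partly follows exon length, from B2m with 860 bases to Nlrc5 with 8493, and fold changes in this data set ran with length.

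The profiles of the 7 genes over the 5 libraries were also compared, which largely restates their fold changes. In mean-centred log2 CPM, the root mean square difference was 0.0794 between H2-K1 and B2m, 0.0896 between H2-K1 and H2-D1 and 0.0732 between Tap2 and Tapbp, against 0.460 to 0.547 between Nlrc5 and any of H2-K1, H2-D1 and B2m. Nlrc5 was not as far from the loading genes, at 0.195 from Tap1, 0.254 from Tapbp and 0.266 from Tap2, while Tap1 and Tap2 differed by 0.156. The genes nearest to each of the 7 by this measure, among 10322 compared, were Atpif1 (0.0328) and Smco4 (0.0371) for H2-K1, Rpl14 (0.00729) and Snrpe (0.0136) for H2-D1, and Ecscr (0.0547) and S100a6 (0.0675) for B2m. They were Iqcb1 (0.0249) and Gstm2 (0.0275) for Tapbp, Arl6 (0.0267) and Vamp4 (0.0370) for Tap1, Lrwd1 (0.0164) and Ube2j2 (0.0286) for Tap2, and Mospd2 (0.0265) and Gadd45a (0.0454) for Nlrc5. The median gene lay 0.243 to 0.578 away. With 5 libraries in 2 groups, nearness mostly means a similar fold change between the diets.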

How the data were processed

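The data are raw counts per gene that the authors deposited, with 1 table for each library. The submitters' processing notes name Trimmomatic 0.36, STAR 2.5.2b, featureCounts, Subread 1.5.2 and the build GRCm38. The sources used here give no strand setting, read length, annotation release or treatment of reads that map to several places, so genes that overlap or share sequence are uncertain. Of 49315 genes, 49056 were found in GENCODE M21 (91.4% with the same start and end), which gave symbols and transcripts.

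The test was that of edgeR 4.0.16 in R 4.3.3 (filterByExpr, TMM, glmQLFit, glmQLFTest on diet, Benjamini-Hochberg over all genes tested). Each SE is the coefficient divided by the root of its F statistic. The procedure was tested on simulated data. TPM used the exon lengths in the tables. Shared stretches were counted between annotated transcripts of different genes. Ratios were compared with exact two-sided permutation tests. The 7 genes, the lists and the markers were chosen with earlier results of these data known. Genes named from a list were the 4 with the smallest p among those that average 4 CPM or more in a group, unless said otherwise. Of 28 heavy chains listed, H2-Q8, H2-Q9 and H2-T9 matched no symbol. No libraries were duplicates: the chi-square per degree of freedom between libraries of a group was 2.64 to 8.84. Alternatives covered scaling, filters, limma 3.58.1, DESeq2 1.42.0, length and GC offsets (mgcv 1.9.3), a replicate block and each library left out.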

Additional observations from a re-analysis of the deposited data

How the results depend on the processing

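Under 18 alternatives each, H2-K1 (log2 fold change −1.11 to −0.74), H2-D1 (−1.02 to −0.76) and B2m (−1.22 to −0.57) stayed lower in HFHS hearts and past the threshold, and the heavy chain sum did so under its own alternatives (−0.98 to −0.67). Tap1 passed with total counts in place of TMM (−0.45), upper-quartile factors (−0.40), exon length offsets (−0.45) and exon length and GC offsets (−0.46). Tap2 passed with total counts (−0.36) and upper-quartile factors (−0.31). Total counts move the median of all genes by −0.09. Tapbp lost its call with the replicate block plus exon length and GC offsets (−0.24, adjusted p = 0.0770), and Nlrc5 turned to 0.07 with the replicate block alone, in both cases with the cause not tested. H2-M3 also lost its call with the block plus offsets (−0.66, adjusted p = 0.0559). With single libraries left out, log2 fold changes ran from −1.11 to −0.82 for H2-K1, −0.99 to −0.85 for H2-D1, −1.22 to −1.02 for B2m, −0.46 to −0.26 for Tap1, −0.39 to −0.14 for Tap2, −0.43 to −0.21 for Tapbp and −0.18 to 0.12 for Nlrc5. Between 3 and 6 of the 7 genes were called, against 4 in the edgeR fit with TMM, and 3974 to 5565 of all genes, against 5417.

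The replicate numbers of the labels are shared by 2 pairs of libraries, whose deviations correlated at 0.035 and 0.026, so they were not taken as pairs. With the replicate block 5332 genes and 4 of the 7 were called. With 2 chow libraries, leaving 1 out rests on the assumption that the other varies like the HFHS libraries. Depth limits Nlrc5 and Tap1, with 96 to 198 counts a library, most.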
